A study of Rattus norvegicus with 35 samples.

Results

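The microRNAs numbered miR-297, miR-466, miR-467 and miR-669 form a repeat-rich rodent group, most of which is known in the mouse from an intron of Sfmbt2. On the arrays analysed here, 47 of 1766 probe names carried a mouse (mmu-) or rat (rno-) microRNA of 1 of these 4 numbers, with any letter, arm or star suffix, and each had 4 spots. Of these, 5 were named miR-297, 19 miR-466, 11 miR-467 and 12 miR-669. Only 3 carried a rat name (rno-miR-297, rno-miR-466b and rno-miR-466c). The other 44 were mouse names read with rat RNA. Each array measured total RNA from a 1 cm fragment of spinal cord at T8 of 1 adult female Wistar rat. LS1, LS3 and LS7 rats received a laminectomy and a contusion of 200 kdyne and were killed 1, 3 and 7 days later. SH1, SH3 and SH7 rats received the laminectomy alone, and CT rats had no surgery. Every group held 5 rats.

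MicroRNAs are short RNAs cut from a hairpin, and they guide the silencing complex to messenger RNAs mainly through a seed at their 5′ end. Either arm of the hairpin can be kept, and the name ends in 5p or 3p for the arm. In older names a star marks the arm that was thought to be the minor product. Sfmbt2 encodes a Polycomb group protein. In the mouse it is imprinted, and its intronic microRNAs are known from the placenta and from embryonic stem cells. Among the members whose roles have been described, mouse miR-669a has been described as a regulator of MyoD, and mouse miR-466l has been described as a binder of the interleukin-10 messenger RNA.

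The rat reference was examined first, because it shows what the names stand for. RefSeq (GRCr8) held 7 different mature sequences of these numbers from 5 rat hairpins, with no miR-467 or miR-669 among them. They are shown because the arms of a hairpin differ in base composition, and probes of either arm are described apart from each other in the results. The capitals mark the seed, bases 2 to 8.

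rno-miR-466b-5p: uAUGUGUGuguguauguccaug

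rno-miR-466c-5p: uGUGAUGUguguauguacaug

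rno-miR-466d: aUGUGUGUguauguucuuuugu

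rno-miR-297: aUGUAUGUgugcauguaugcaug

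rno-miR-466b-3p: aUACAUACacacacacauacac

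rno-miR-466b-2-3p: aUAUACAUacacacauacaca

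rno-miR-466c-3p: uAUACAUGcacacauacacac

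The first 4 were made of U and G for 69.6% to 86.4% of their bases, and the 3 of the 3p arm were made of A and C for 76.2% to 86.4%. All 7 seeds differed, and none was shared with another of the 693 rat mature microRNAs in the table. A stretch of 17 bases of rno-miR-466b-5p was the reverse complement of part of rno-miR-466b-3p, and for the arms of miR-466c the longest such stretch was 10 bases. Among the UG-rich sequences, rno-miR-466b-5p shared 13 consecutive bases with rno-miR-466d and 11 with rno-miR-466c-5p. The letters UGUGUG stood in 11 of the 693 rat mature sequences (1.59%), 4 of them in this group, and ACACAC stood in 9 (1.30%), 3 of them in this group (searched on the RNA strand only). How far each probe binds a relative that shares such a stretch was not tested.

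Of the 5 hairpins, 4 lay within the span of Sfmbt2 on chromosome 17 and on its strand, the minus strand. They were Mir466d (chr17:72913004-72913096), Mir466c (chr17:72927601-72927679), Mir466b-2 (chr17:72942463-72942544) and Mir466b-1 (chr17:72945493-72945578), within a gene annotated at chr17:72844037-73038599. Mir297 went against the label of an Sfmbt2 cluster. It lay on the minus strand of chromosome 10 (chr10:98715682-98715747), within the span of the long non-coding RNA gene LOC102549836. The array names rno-miR-466b and rno-miR-466c carry no arm, so which of the printed arms these probes read is not known here.

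A probe was taken as present on an array if a share above 0.5 of its spots read higher than the negative control spots (their mean plus 2 SD), and as detected in the series if at least 3 rats of some group passed. By this rule 36 of the 47 probes (76.6%) were detected, against 812 of all 1766 names (46.0%), and 14 of the 36 were detected on all 35 arrays. All 9 probes with a 3p or star name were detected, as were 7 of 8 with a 5p name and 20 of 30 with no arm in the name. The 11 probes not detected were mmu-miR-466j, mmu-miR-466k, mmu-miR-466l, mmu-miR-467a, mmu-miR-467b, mmu-miR-467c, mmu-miR-467d, mmu-miR-669g, mmu-miR-669h-5p, mmu-miR-669j and mmu-miR-669k. Of these, 5 were present on no array. The partner arm of an undetected probe could be present: mmu-miR-467b was present on 0 arrays and mmu-miR-467b* on 34, and mmu-miR-669h-5p was present on 5 arrays and mmu-miR-669h-3p on 31. Another 3 detected probes (rno-miR-466b, mmu-miR-297b-5p and mmu-miR-466h) varied too little over the arrays to enter the test. Over the 4 spots of a detected cluster probe, the median SD on an array was 0.12 on the log2 scale.

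Values are signals after variance-stabilizing normalization (VSN), on a log2-like scale that is compressed at low signal, so that changes of dim probes are understated. Of the 3 rat-named probes, rno-miR-466c and rno-miR-466b read lower in LS7 rats and rno-miR-297 stood near background. The probe rno-miR-466c read 7.48, 6.84, 7.10, 7.42 and 6.89 in LS7 rats. It read 7.62, 7.97, 8.23, 8.23 and 7.73 in SH7 rats and 7.75, 8.76, 7.89, 8.48 and 8.43 in CT rats. Every LS7 rat lay below every SH7 rat and every CT rat. The change was -0.81 ± 0.30 (SE) against SH7 and -1.12 ± 0.33 against CT (limma adjusted p = 0.0274 and 0.011, n = 5 each). The call against SH7 was lost without LS7 replicate 2 or without SH7 replicates 2, 3 or 4 (adjusted p between 0.0607 and 0.0753), and the direction turned to 1.08 when arrays were scaled to the 75th percentile of the names detected on every array.

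The probe rno-miR-466b read 7.56, 7.16, 6.85, 7.31 and 6.32 in LS7 rats, against 7.81, 7.78, 8.08, 8.20 and 7.79 in SH7 rats and 7.69, 8.08, 7.56, 8.14 and 8.32 in CT rats. All LS7 rats were below all SH7 rats, and the LS7 mean was 0.89 lower than the SH7 mean. Its interquartile range over the 35 arrays was 0.48, under the limit of 0.5 for testing, and without that limit its adjusted p was 0.0159. It too turned under the 75th percentile scaling, to 1.03.

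The probe rno-miR-297 was detected on 0 of 5 LS7 arrays, 1 of 5 SH7 arrays and 0 of 5 CT arrays, and passed the detection rule through 3 LS1 arrays. Its values were 4.77, 5.24, 2.71, 5.02 and 5.12 in LS7 rats and 4.88, 4.43, 4.51, 4.79 and 4.80 in SH7 rats, with 4.57, 4.60, 4.03, 3.91 and 4.84 in CT rats, and the groups overlapped. The difference of -0.11 had a 95% interval of -1.09 to 0.88 (adjusted p = 0.836), so the array set only a wide limit on it. All 95% intervals given here used the residual degrees of freedom alone, fewer than the limma test used. They are therefore wider than that test implies.

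**Figure D1:**
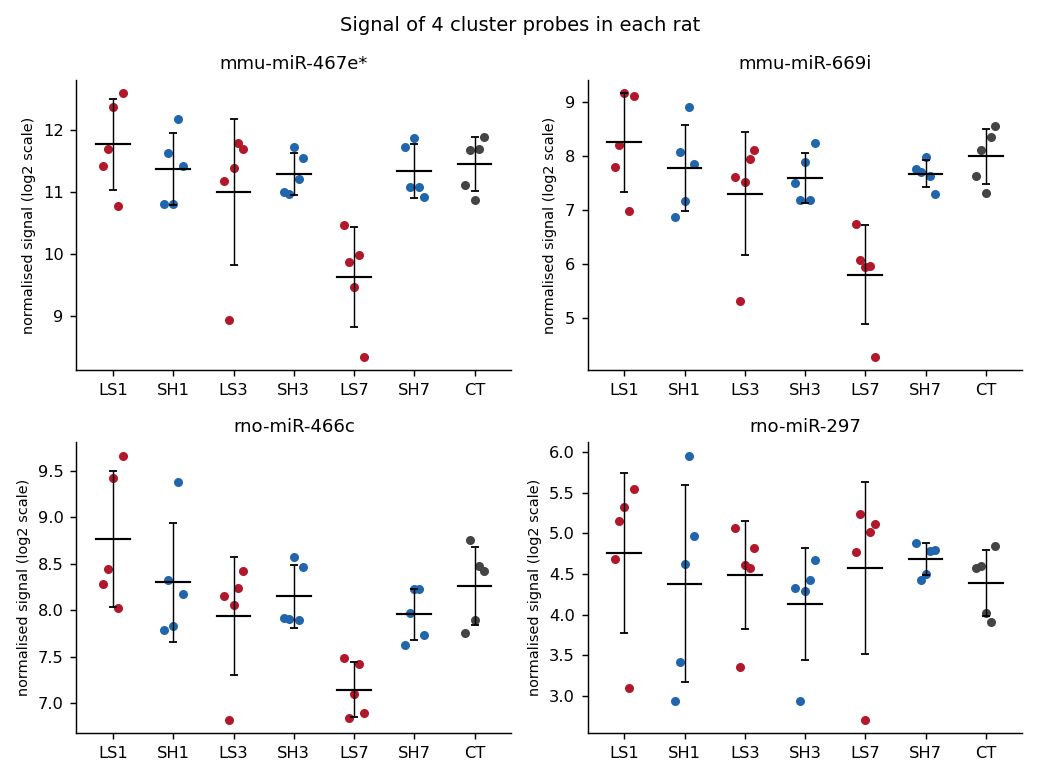
Normalised signal (log2 scale, y axis) of 4 cluster probes in every rat, by group (x axis), with points for rats, horizontal lines for group means and bars for the SD (5 rats a group). LS7 rats lie below all SH7 and CT rats for mmu-miR-467e*, mmu-miR-669i and rno-miR-466c, while rno-miR-297 overlaps between all groups.

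To answer whether these microRNAs changed with contusion, each injured group was compared with the sham group of the same day and with CT. At day 7 the cluster was lower in injured cords on the VSN scale, although scaling to the 75th percentile of the names detected on every array turned its direction. Of 33 tested probes, 26 were lower in LS7 than in SH7 and 0 were higher (limma, adjusted p under 0.05), where 58.6% of all 715 tested names were called lower and 4.76% higher. The median change over the 33 was -1.28, beside -1.11 over all names tested. The same 26 probes were lower in LS7 than in CT, with 0 higher, a median of -1.42 beside -1.01, and a background of 51.2% called lower and 2.38% higher. The LS7 rats are common to both comparisons. In whole tissue, fewer cells of a type and less RNA per cell cannot be told apart. Every LS7 rat lay below every SH7 rat for 21 of the 33 probes (36.6% of all names) and below every CT rat for 23 (24.8%).

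The 5 probes with the highest mean signal were all called lower. The probe mmu-miR-467e* read 10.47, 9.88, 9.47, 9.98 and 8.34 in LS7 rats, against 11.73, 11.08, 11.88, 11.08 and 10.91 in SH7 rats and 11.12, 11.68, 10.87, 11.69 and 11.88 in CT rats. The lowest LS7 rat was replicate 5, and no LS7 value reached the SH7 or CT range. Its change was -1.71 ± 0.39 against SH7, a 3.27-fold lower signal, and -1.82 ± 0.40 against CT (adjusted p = 0.00175 and 0.0028). The probe mmu-miR-466f-3p read 9.86, 9.25, 8.78, 9.02 and 7.67 in LS7 rats, against 11.25, 10.60, 11.36, 10.45 and 10.11 in SH7 rats, and averaged 8.92 ± 0.80 in LS7 rats, 10.75 ± 0.54 in SH7 rats and 10.95 ± 0.38 in CT rats (SD, n = 5). The probe mmu-miR-669f read 9.90, 9.38, 8.84, 9.01 and 7.91 in LS7 rats, against 11.14, 10.55, 11.25, 10.37 and 10.24 in SH7 rats (-1.70 ± 0.38). The probe mmu-miR-467g read 9.76, 9.15, 8.45, 8.84 and 7.58 in LS7 rats, against 10.99, 10.34, 11.06, 10.12 and 9.97 in SH7 rats (-1.74 ± 0.40). In all of them LS7 replicate 5 was the lowest rat and replicate 1 the highest of its group. The probe mmu-miR-467f read 9.31, 8.60, 8.30, 8.58 and 7.15 in LS7 rats, against 10.69, 10.04, 10.95, 9.65 and 9.47 in SH7 rats (-1.77 ± 0.41). All 5 probes had every LS7 rat below every SH7 rat.

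Among the cluster, the largest falls against SH7 on the VSN scale were those of mmu-miR-669i, mmu-miR-669h-3p and mmu-miR-466f-3p. The probe mmu-miR-669i read 6.74, 6.08, 5.95, 5.97 and 4.28 in LS7 rats, against 7.76, 7.71, 7.98, 7.64 and 7.30 in SH7 rats and 7.64, 8.11, 7.32, 8.35 and 8.56 in CT rats. It was detected on only 2 of the 5 LS7 arrays and on all SH7 and CT arrays. Its change was -1.87 ± 0.40 against SH7 and -2.19 ± 0.43 against CT (adjusted p = 0.00125 and 0.002). The probe mmu-miR-669h-3p, also detected on 2 LS7 arrays, read 6.23, 5.09, 5.48, 5.68 and 3.94 in LS7 rats, against 7.29, 7.10, 7.55, 7.09 and 6.69 in SH7 rats, and averaged 5.28 ± 0.86 in LS7 rats, 7.14 ± 0.31 in SH7 rats and 7.45 ± 0.54 in CT rats. The probe for mmu-miR-466a-3p/mmu-miR-466b-3p/mmu-miR-466c-3p/mmu-miR-466e-3p had the largest fall against CT (-2.20 ± 0.50), overlapped between LS7 and SH7 rats and was present on 1 LS7 array. Of the remaining probes called lower, mmu-miR-466b-3-3p, mmu-miR-466i, mmu-miR-467b*, mmu-miR-467a*/mmu-miR-467d* and mmu-miR-669d changed by between -1.70 and -1.37 against SH7, each with every LS7 rat below every SH7 rat. The probes mmu-miR-669e, mmu-miR-467h and the 5p probes of miR-466a to miR-466f changed by between -1.28 and -0.72, of which mmu-miR-467h, mmu-miR-466b-5p and mmu-miR-466e-5p overlapped between LS7 and SH7 rats. Of the 26 probes called lower, 18 were detected on at least 4 LS7 arrays. The probe mmu-miR-466g was detected on none of them, averaging 3.96 in LS7 rats, 5.44 in SH7 rats and 5.97 in CT rats. The lowest detected signals of the LS7 arrays set a bound of 5.93 for it. The CT mean lay 1.03-fold above that bound and the SH7 mean lay below it, so no fold is given against SH7. Both means include arrays without the probe, which was present on 3 SH7 and 3 CT arrays.

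The other 7 tested probes were called in neither comparison. The probes mmu-miR-669a and mmu-miR-669c differed by -0.38 and -0.41 from SH7 (95% intervals -1.13 to 0.38 and -1.12 to 0.31). The probes hsa-miR-297/mmu-miR-297a and mmu-miR-297c differed by 0.00 and 0.02 (-0.86 to 0.87 and -0.74 to 0.78), and with rno-miR-297 they left only mmu-miR-297b-3p/mmu-miR-297a*/mmu-miR-297c* called among the 4 tested probes of miR-297 (-1.60 ± 0.37). The probes mmu-miR-669b and mmu-miR-466f differed by 0.58 and 0.68 (adjusted p = 0.149 and 0.103) and were present on 1 LS7 array and no SH7 array. The untested probe mmu-miR-466h read 5.27, 5.85, 5.91, 6.20 and 6.20 in LS7 rats, against 5.02, 4.89, 5.19, 5.11 and 5.10 in SH7 rats, without overlap. It was present on 1 array of each of these groups, its signal lying near the negative control limit. Without the limit on the interquartile range, 27 of 36 cluster probes were called lower and 1 higher in LS7 than in SH7, where 54.2% of all names were called lower and 5.91% higher. By number, and with that limit in place, 13 of 14 probes of miR-466, 7 of 7 of miR-467 and 5 of 8 of miR-669 were called lower in LS7 than in SH7 (58.6% of all names).

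**Figure D2:**
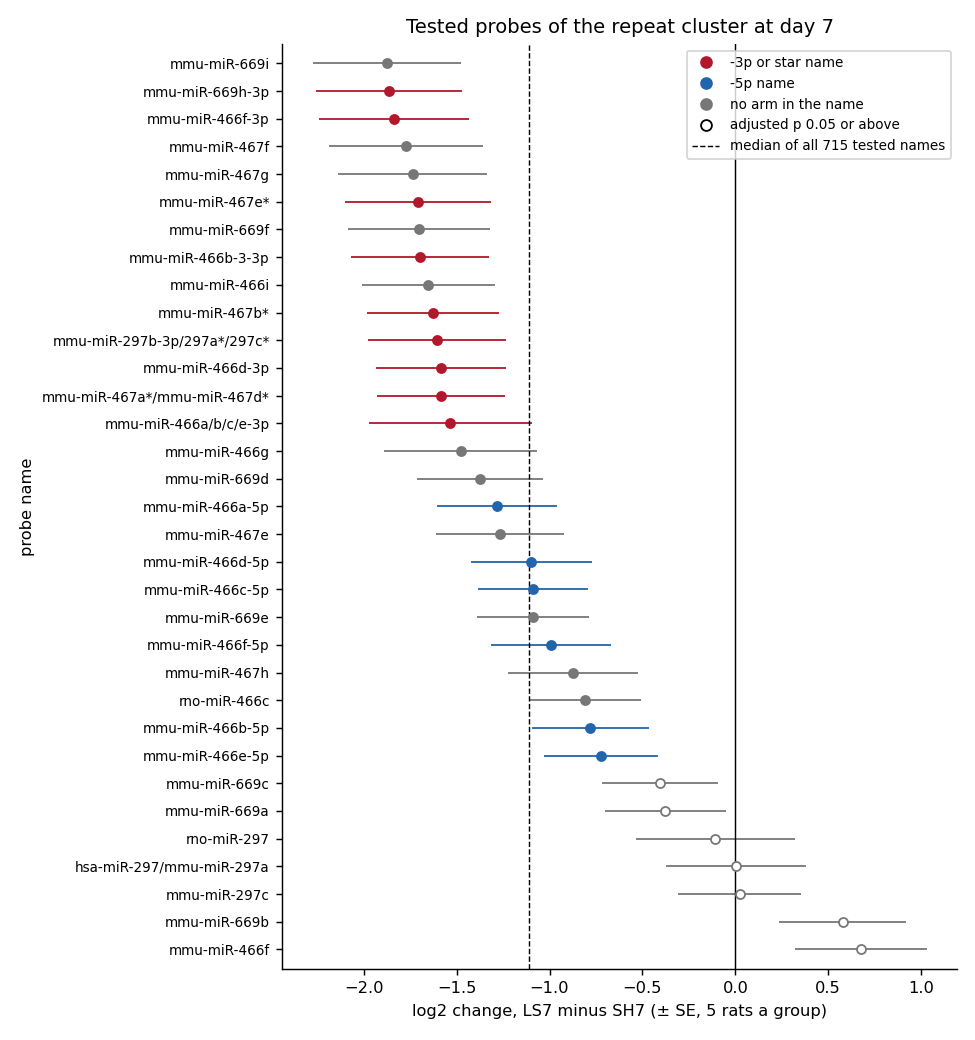
Change of each of the 33 tested cluster probes between LS7 and SH7 rats (x axis, log2 scale, bars are the SE of the limma fit, 5 rats a group), coloured by the arm in the probe name, with open circles where the adjusted p was 0.05 or above. The 9 probes with a 3p or star name lie between -1.86 and -1.53, left of the 6 with a 5p name, which lie between -1.28 and -0.72 around the dashed median of all names tested (-1.11).

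The arm in the name separated the members, a split that was noticed in the values and is given as a description. The 9 probes named 3p or star changed by between -1.86 and -1.53 against SH7, with a median of -1.63. The 6 tested probes named 5p changed by between -1.28 and -0.72, with a median of -1.04, so the ranges did not overlap. All 6 were of miR-466, while the 3p and star probes were of miR-297, miR-466, miR-467 and miR-669, so the ranges also compare unlike numbers. The 18 with no arm in the name spanned both (-1.87 to 0.68). Against CT the ranges were -2.20 to -1.82 for the 3p and star probes and -1.42 to -0.95 for the 5p probes.

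The same order was seen between the arms of 4 hairpins. The probe mmu-miR-466d-3p read 7.60, 6.82, 6.99, 7.10 and 5.89 in LS7 rats and 8.49, 8.32, 8.99, 8.43 and 8.10 in SH7 rats, a change of -1.59 ± 0.35. Its partner mmu-miR-466d-5p read 8.54, 8.08, 7.76, 8.03 and 7.21 in LS7 rats and 9.11, 8.83, 9.46, 9.10 and 8.63 in SH7 rats, a change of -1.10 ± 0.33. Both were lower in every LS7 rat than in any SH7 rat, and the 3p arm fell by 0.49 more. The difference was larger for miR-466f (-1.84 for 3p and -0.99 for 5p) and smaller for miR-466a (-1.53 and -1.28). For miR-467e the star probe changed by -1.71 and the probe without a star by -1.27. The probes mmu-miR-466a-3p and mmu-miR-467e were each present on 1 LS7 array, so their values there lay near the negative control limit. For miR-297b no order between the arms could be read, since mmu-miR-297b-5p was present on 0 LS7 arrays, 1 SH7 array and 2 CT arrays. These pairs were chosen because both arms were detected in the series, and the differences between arms were not tested.

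When the detected probes of each arm were averaged in each rat and set relative to the CT mean, the 3p and star probes (9) read -1.13, -1.98, -1.99, -1.72 and -3.05 in LS7 rats. They read between -0.65 and 0.18 in SH7 rats and between -0.55 and 0.53 in CT rats. The 5p probes (7) read -0.68, -0.99, -1.06, -0.83 and -1.26 in LS7 rats, between -0.30 and 0.16 in SH7 rats and between -0.33 and 0.26 in CT rats. The difference between the 2 arms was -0.45, -0.99, -0.94, -0.89 and -1.80 in LS7 rats and lay between -0.35 and 0.02 in SH7 rats and between -0.26 and 0.45 in CT rats, so LS7 rats did not overlap with SH7 or CT rats. They did overlap with LS3, SH3 and SH1 rats, of which the lowest were at -1.26 (LS3 replicate 2), -0.59 and -0.49, while the lowest LS1 rat was at -0.41. Leaving out mmu-miR-297b-5p, which was present on none of the LS7 arrays, gave -1.39 to -0.50 in LS7 rats, -0.34 to -0.0043 in SH7 rats and -0.19 to 0.33 in CT rats. The mean level of all 812 detected names was -0.97 relative to CT in LS3 replicate 2 and -0.19, -0.96, -0.83, -0.63 and -1.29 in the 5 LS7 rats, against -0.04 to 0.26 in SH7 rats. The part of this array-wide level in the arm difference was not tested.

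**Figure D3:**
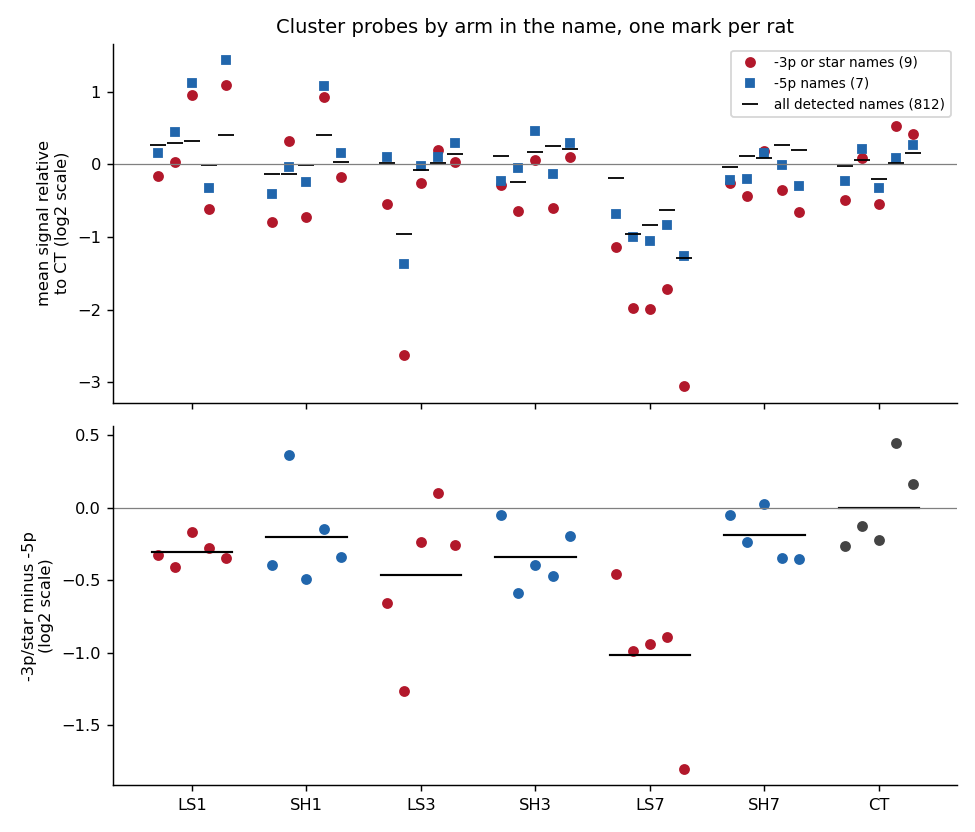
Upper panel, mean signal relative to the CT mean (y axis, log2 scale) of the 9 3p or star probes, the 7 5p probes and all 812 detected names in each rat, by group (x axis). Lower panel, the 3p or star mean minus the 5p mean in each rat with the group mean as a line, which is -1.01 in LS7 rats and between -0.46 and 0.00 in the other 6 groups.

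Before day 7 no cluster probe passed the test. At day 1, 31 of 33 probes stood higher in LS1 than in SH1, with a median of 0.44 beside 0.15 over all names tested, yet 0 were called and 0 had an unadjusted limma p under 0.05, against 10.1% of all names (0% of all names were called in either direction). For rno-miR-466c the values were 8.28, 8.44, 9.43, 8.02 and 9.67 in LS1 rats and 7.79, 8.33, 7.83, 9.38 and 8.17 in SH1 rats, and the groups overlapped. With spike-in scaling, 31 of 32 probes and 88.0% of all names were called higher in LS1 than in SH1, and 30 of 32 probes and 55.4% of all names higher than in CT. Relative to the median of all detected names the cluster ran from 0.08 to 0.52 in LS1 against SH1 over 8 scalings. Against CT, 0 were called, where 7.55% of all names were called higher and 0% lower. In that comparison 3 of 33 had an unadjusted p under 0.05, mmu-miR-669c (0.83), mmu-miR-466f-5p (0.80) and mmu-miR-669a (0.73), all higher in LS1, where 22.1% of all names had one in either direction. Without LS1 replicate 4, 3 probes and 14.7% of all names were called higher than in CT. At day 3, 30 of 33 stood lower in LS3 than in SH3, with a median of -0.24 beside -0.26, and 0 were called or had an unadjusted p under 0.05 (4.9% of all names were called lower and 0.28% higher, and 19.3% had an unadjusted p under 0.05). Against CT at day 3 the median was -0.34 beside -0.22, again with 0 calls and 0 unadjusted p under 0.05 (0.28% of all names were called higher and 0% lower, and 14.4% had an unadjusted p under 0.05). Sham surgery gave 0 calls and 0 unadjusted p under 0.05 in the cluster at each day, with medians of -0.00 in SH1, -0.14 in SH3 and -0.19 in SH7 against CT (0% of all names called). Of all names, 0.839% had an unadjusted p under 0.05 in SH1, 5.03% in SH3 and 11.6% in SH7 against CT. In SH7, 32 of 33 cluster probes stood below CT, where the median of all names tested was 0.14, and under the 8 ways of scaling described further on the cluster median minus that of all detected names ran from -0.31 to -0.16.

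Over the 3 days, mmu-miR-467e* averaged 11.77 ± 0.74 in LS1 and 11.37 ± 0.58 in SH1 and 9.63 ± 0.80 in LS7 and 11.34 ± 0.44 in SH7 (SD, n = 5). At day 3 it ran between 11.18 and 11.79 in 4 LS3 rats, with replicate 2 at 8.95, and averaged 11.29 ± 0.33 in SH3.

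**Figure D4:**
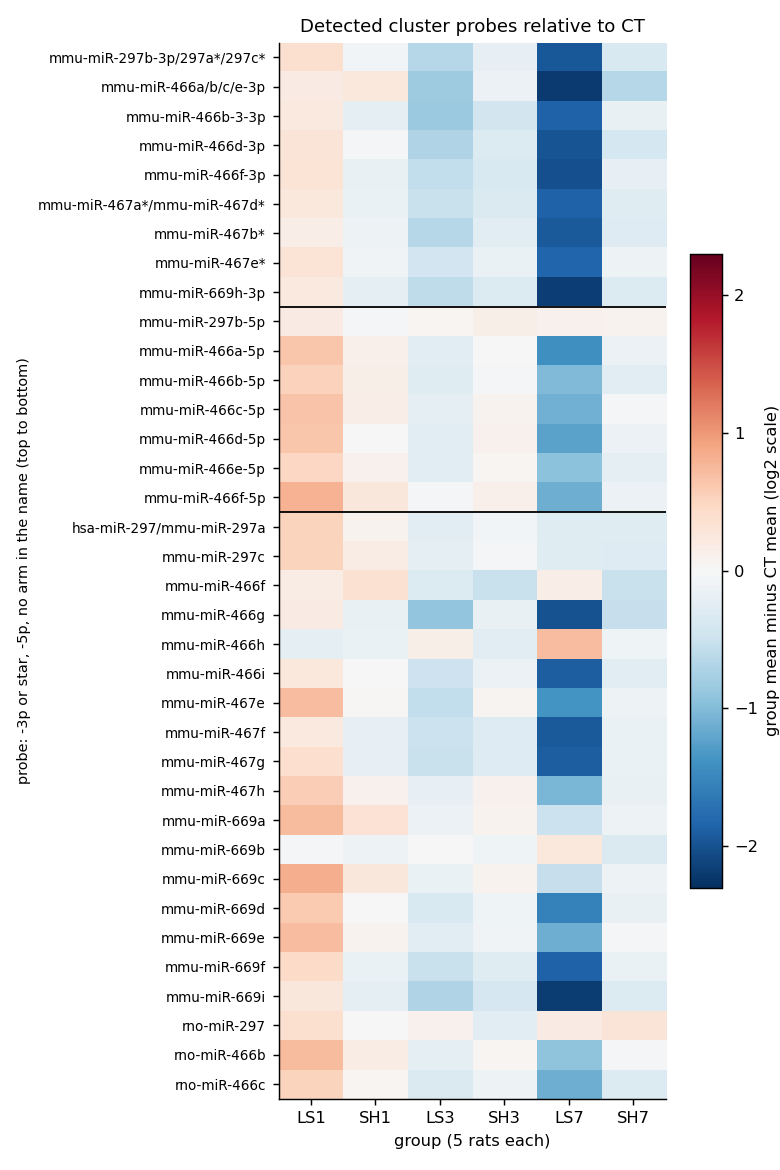
Mean signal of each of the 36 detected cluster probes in the 6 operated groups minus its CT mean (colour, log2 scale; x axis, groups of 5 rats; y axis, probes by arm in the name). The LS7 column holds the lowest values, down to -2.20 for mmu-miR-466a-3p/mmu-miR-466b-3p/mmu-miR-466c-3p/mmu-miR-466e-3p, and the sham columns stay between -0.66 and 0.35 for the tested probes.

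Whether the injury effect differed between days was tested in 1 fit of all 35 arrays. Between days 7 and 1, 26 of 33 probes had a more negative effect at day 7 and 0 had a less negative one (background 56.4% and 2.66%), with a median difference of -1.81 beside -1.48 over all names. The largest were mmu-miR-669i (-2.35 ± 0.65), mmu-miR-466f-3p (-2.32 ± 0.65) and mmu-miR-467g (-2.32 ± 0.68), with adjusted p between 0.00368 and 0.00516. Scan day as a block (16 residual degrees of freedom) left 0 of 33 cluster probes called, with 2.24% of all names called more negative and a cluster median of -1.74. The 75th percentile scaling turned the direction, with 4 of 32 cluster probes and 39.8% of all names called less negative. Between days 7 and 3, 0 probes were called, where 3.36% of all names were called lower and 0% higher, and 12 of 33 had an unadjusted p under 0.05, all more negative at day 7, where 30.5% of all names had one in that direction. Without LS3 replicate 2, 17 probes and 41.8% of all names were called more negative, and without LS7 replicate 1, 7 probes and 29.0% of all names were. Between days 3 and 1, 0 were called and 1 had an unadjusted p under 0.05, against 11.5% of all names (0% of all names were called).

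The size and even the sign of the day 7 change depended on how the arrays were brought to 1 scale. Under 8 ways of scaling, the median change between LS7 and SH7 ran from -1.18 to 0.90 for the detected cluster probes and from -1.01 to 1.22 for all detected names. With the arrays scaled to the 75th percentile of the names detected on every array, 14 of 32 probes were called higher and 0 lower in LS7 than in SH7, where 61.3% of all names were called higher. On the ratio to the red channel, the other dye of each spot, 0 of the 6 probes that passed the filter were called, where 27.9% of all names were called higher and 23.8% lower. Relative to the median of all detected names, the cluster ran from -0.40 to 0.16 against SH7 and from -0.65 to -0.14 against CT. The 3p and star probes stayed below that median under all 8 scalings, with differences from -0.88 to -0.11 against SH7 and from -1.30 to -0.44 against CT. The 5p probes did not, with values from -0.265 to 0.40 against SH7. The mean change of the 3p and star probes minus that of the 5p probes was negative under all 8 scalings, from -0.82 to -0.285 against SH7 and from -1.01 to -0.40 against CT. The percentile and spike-in scalings divide each array by 1 factor, which cancels in differences between sets of names, apart from a floor at low signal. Those settings could therefore hardly differ in the sign of such differences, and are no separate checks of it.

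**Figure D5:**
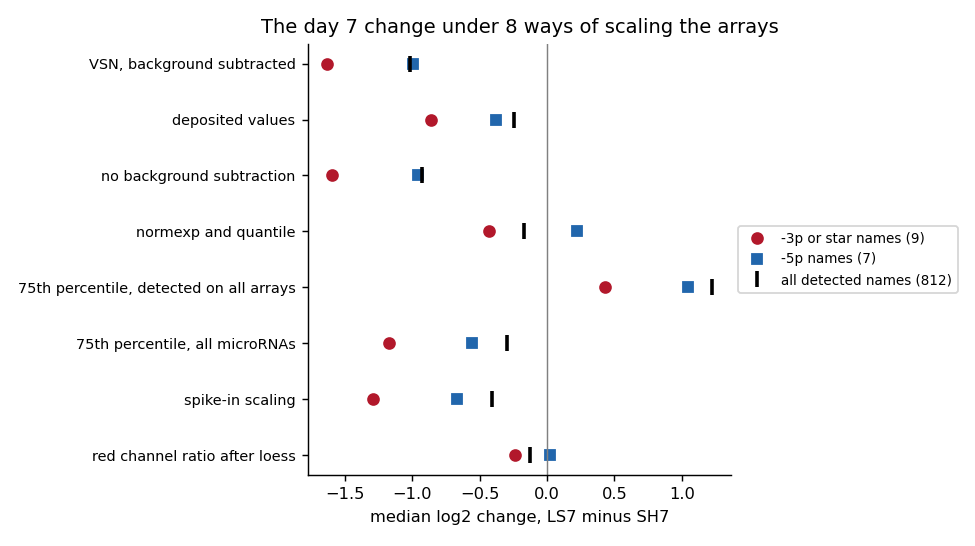
Median change between LS7 and SH7 rats (x axis, log2 scale) of the 9 3p or star probes, the 7 5p probes and all 812 detected names, under 8 ways of scaling the arrays (y axis). The medians of all names run from -1.01 to 1.22, and in each row the 3p or star median lies left of the other 2.

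The LS7 arrays also differed in quality measures. They were scanned at a green detector gain of 600 to 720, against 550 to 610 for SH7 and 550 to 600 for CT, and held 270 to 922 detected names, against 555 to 771 for SH7 and 497 to 1142 for CT. Detected cluster probes numbered 15 to 35 per LS7 array, 30 to 34 per SH7 array and 27 to 40 per CT array. Presence was judged against each array's own limit. That limit was a signal before normalization of 70.9 to 325 for LS7, 27.3 to 95.1 for SH7 and 39.8 to 79.6 for CT. Its part in the lower counts of LS7 arrays was not tested. Arrays were scanned on 13 days. On the 1 day shared by LS7 and SH7 (LS7 replicate 5 and SH7 replicate 3) the 3p and star probes differed by a median of -3.21, the 5p probes by -1.67 and all detected names by -1.48. These 2 arrays were unlike in quality, with a gain of 720 for LS7 replicate 5 and 560 for SH7 replicate 3. Their negative control SDs were 67.0 and 8.98, and they held 279 and 598 detected names. On 3 days shared by LS7 and CT the 3p and star probes differed by -2.52, -1.83 and -0.68 and the 5p probes by -1.08, -1.26 and -0.37. All detected names differed there by -1.09, -0.76 and -0.21, the first of these again with LS7 replicate 5. The part of gain and signal level in the falls was not tested.

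The tissue label was checked on markers of cord cells and of blood and muscle. The neuronal miR-124, miR-9 and miR-128 and the oligodendrocyte miR-219-5p, miR-338-3p and miR-138 were present on 33 to 35 of the 35 arrays. Of 3 muscle markers, miR-1 did not pass the detection rule. Relative to CT, the mean of the other 2 (miR-133a, miR-206) lay between -1.16 and -0.35 in LS7 rats. In SH7 rats it lay between 0.43 and 0.76. Singly, in LS7 against CT, miR-133a changed by -1.45 and miR-206 by -0.27 (limma adjusted p = 0.00638 and 0.551). Relative to CT, the mean of the 3 neuronal markers lay between -3.13 and -0.95 in LS7 rats and between -0.33 and 0.68 in SH7 rats. That of the 3 oligodendrocyte markers lay between -3.01 and -0.66 in LS7 rats and between -0.04 and 0.83 in SH7 rats. That of the 3 erythrocyte markers (miR-451, miR-144, miR-486) lay between -3.30 and -0.34 in LS7 rats and between -0.86 and 1.57 in SH7 rats. The mean of the 4 leukocyte markers (miR-223, miR-142-3p, miR-142-5p, miR-155) lay between 0.27 and 1.56 in LS7 rats and between 0.22 and 1.57 in SH7 rats. Singly, in LS7 against SH7, miR-155 was called higher (0.75, limma adjusted p = 0.0301). The probes of miR-223 (0.41), miR-142-3p (-0.53) and miR-142-5p (-0.49) were not called. Of the defining markers only miR-1 failed detection, and their part in the cluster's change was not tested.

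Probes outside the cluster with similar repeats were examined beside it. In LS7 rats relative to SH7 rats, hsa-miR-574-5p/mmu-miR-574-5p changed by -1.13 ± 0.32, mmu-miR-1187 by -0.92 ± 0.33, mmu-miR-468 by -1.12 ± 0.31 and hsa-miR-32* by -1.65 ± 0.35 (limma adjusted p between 0.00125 and 0.0215, n = 5). The fifth, mmu-miR-672/rno-miR-672, changed by 0.29 ± 0.30 and was not called. In the same comparison 58.6% of all 715 tested names were called lower, and their median change was -1.11. Among the detected names outside the cluster, the 3 most like the mean of the detected cluster probes were hsa-miRPlus-F1232 (Pearson r = 0.975), hsa-miRPlus-E1232 (0.970) and hsa-miR-620 (0.967) over 35 arrays that share their array-wide level. Within the cluster, the median r between probe pairs was 0.963 for the 3p and star probes (36 pairs), 0.928 for the 5p probes (21 pairs) and 0.902 across arms (63 pairs). The lowest pairs were at 0.64, 0.23 and -0.09, in that order.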

How the data were processed

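Total RNA of 35 rats was hybridised to Exiqon miRCURY LNA arrays, 1 rat per array. The scanner files hold the intensity of 9360 spots, which the authors deposited without normalization as median foreground and background in green (the sample) and red. A deposited score marks bad spots with -100. The deposited value table holds log2 values that the authors normalised by VSN, and it followed the scanner files except for LS7 replicate 4 and SH7 replicate 1.

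Green background was subtracted, bad spots were dropped, VSN (written in Python 3.11.15, tested on simulated data, 0.9 of spots kept) was fitted, and the median per name was taken. Of 812 detected names, 715 had an interquartile range over 0.5 and were tested with limma 3.58.1 (R 4.3.3) on the 10 arrays of a pair, or on 35 for differences between days, with Benjamini-Hochberg adjustment over all 715. Precision depends on the number of arrays and on signal, whose median was 6.57 to 24.4 times the SD of the negative controls.

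The members and lists were chosen with earlier results of these data known. Named were detected probes with a rat name, the 5 with the highest mean, those with the largest changes (3 each way per comparison), and miR-466b, miR-466c and miR-467e*. Arm pairs, mmu-miR-466g, mmu-miR-466h, the uncalled probes and those with an unadjusted p under 0.05 were named after their values were seen. Alternatives changed the scaling, filters, blocks and animals. Sequences are from RefSeq (GRCr8), and those of mouse microRNAs and of the probes were not used here. Numpy 2.4.6, pandas 2.3.3, scipy 1.17.1 and matplotlib 3.10.9 were also used.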

Additional observations from a re-analysis of the deposited data

Results flagged for a closer look

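In 98 groups of 5 rats examined (14 named probes or arm means in 7 groups), 12 had a rat whose gap to its neighbour exceeded 0.71 of the group's range. Chance flags about 1 in 20 of separate groups. The probes share their arrays and the arm means hold some of them, so the 12 cannot be set against that rate. LS3 replicate 2 accounted for 10 of them, each as the lowest LS3 rat: mmu-miR-467e* 8.95 (the others 11.18 to 11.79), mmu-miR-466f-3p 8.28, mmu-miR-669f 8.10, mmu-miR-467g 7.88, mmu-miR-467f 7.74, mmu-miR-669i 5.33, rno-miR-466c 6.82, rno-miR-297 3.36, the mean of the 3p and star probes -2.63 relative to CT (the others -0.55 to 0.20) and that of the 5p probes -1.37 (the others -0.02 to 0.29). The others were low values of rno-miR-297, 2.71 in LS7 replicate 3 and 2.94 in SH3 replicate 2.

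The effect of injury differed between days 7 and 1 for 26 of 33 tested cluster probes and 56.4% of all names (limma, 1 fit of 35 arrays), and for 0 cluster probes with scan day as a block. The differences without that block were largest for mmu-miR-669i (-2.35), mmu-miR-466f-3p (-2.32) and mmu-miR-467g (-2.32).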

How the results depend on the processing

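The direction of the day 7 change depended on the scaling. Of 33 probes, 26 were called lower in LS7 against SH7, in LS7 against CT and in the day 7 against day 1 difference. With arrays scaled to the 75th percentile of the names detected on every array, 14, 5 and 4 were instead called higher (61.3%, 43.8% and 39.8% of all names), as were 2 in the day 7 against day 3 difference (16.6%), and mmu-miR-669i, mmu-miR-669h-3p and rno-miR-466c read 0.49, 0.66 and 1.08 against SH7. Calls lower numbered 15 of 18 and 13 of 18 in LS7 against SH7 and the day 7 against day 1 difference with the deposited values (65.4% and 51.4% of all names), 4, 10 and 1 of 14 in the 3 comparisons with normexp and quantile scaling (32.9%, 26.5% and 17.1%), and 0, 4 and 0 of 6 with the red channel ratio (23.8%, 30.8% and 13.4%). With spike-in scaling, 18, 18 and 31 of 32 were called lower (47.5%, 33.3% and 81.7%) and mmu-miR-466h higher in LS7 against CT. Fewer probes passed the filters under these, and the cause was not tested. With scan day as a block 11, 13 and 0 were called lower (18.5%, 22.5% and 2.24%), with 1, 3 and 16 residual degrees of freedom. In LS7 against SH7 that block rested on LS7 replicate 5 and SH7 replicate 3 alone, which shared a scan day. Its 11 calls therefore compare 1 rat with 1 rat, on arrays unlike in quality, and are no check of the group difference. Between these arrays the cluster median differed by -1.74 and that of all detected names by -1.48. Spike-in scaling gave 31 higher in LS1 against SH1, 30 higher in LS1 against CT and 31 lower in the day 3 against day 1 difference (88.0%, 55.4% and 87.5%), where the main values gave 0. In LS1 against CT the scan day block rested on LS1 replicate 3 and CT replicate 1 alone, which shared a scan day. Between them the cluster median differed by 1.48 and that of all detected names by 0.07. The mean change of the 3p and star probes minus that of the 5p probes was -0.285 against SH7 and -0.40 against CT on the red channel ratio (main -0.82 and -1.01), an alternative chosen after seeing the data. Leaving out 1 rat gave 22 to 28 calls in either direction in LS7 against SH7 (28 without LS7 replicate 1, of which 26 lower, with mmu-miR-466f and mmu-miR-669b higher, where 64.8% and 6.99% of all names were), 24 to 26 in LS7 against CT, 20 to 28 in the day 7 against day 1 difference, 0 to 17 in the day 7 against day 3 difference, 0 to 3 in LS1 against CT, and 0 in the others. Over those fits, 53.4% to 64.8% of all names were called lower in LS7 against SH7 and 40.4% to 57.6% in LS7 against CT. In the day 7 against day 1 difference 49.0% to 63.1% were, and in the day 7 against day 3 difference 0% to 41.8%. In LS1 against CT 4.62% to 14.7% were called higher. In the others at most 8.81% were called higher and at most 8.81% lower. The random scan day block gave 26 lower in LS7 against SH7, LS7 against CT and the day 7 against day 1 difference (58.6%, 51.3% and 53.4%). It gave no value for SH3 against CT. Dim probes limit these results: 18 of the 26 were present on at least 4 LS7 arrays.

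The replicate numbers in the labels were not found to pair the rats: over 45 pairs the correlation of deviations ran from -0.67 to 0.65, 25 exceeded 0.1, and 0 comparisons had every pair over 0.1. Of 10 LS7 and SH7 rats, 5 correlated best with their own number. With a replicate block 24 were called lower in LS7 against SH7, 24 in LS7 against CT and 26 in the day 7 against day 1 difference (57.2%, 47.1% and 57.6% of all names). In all other comparisons 0 were called, where up to 14.7% of all names were called lower and up to 9.23% higher.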
